A study of Rattus norvegicus with 6 samples.

Results

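The genes described here are 10 genes of glucose uptake and glycolysis in cultured rat hippocampal neurons, Slc2a1, Slc2a3, Hk1, Pfkp, Gapdh, Pgk1, Eno1, Eno2, Ldha and Ldhb. They were found by name among the 26405 genes of the count table, 7 by the gene symbol and 3 (Hk1, Eno2 and Gapdh) by the gene description, because their symbol was blank or was a locus number. Of the 10, 9 had enough counts to be tested among 13917 genes, and Slc2a3 did not. The study asked what S-SCAM (gene Magi2), a scaffolding protein of synapses, does in developing neurons. The KD group was 3 cultures from embryonic rats that received, at day in vitro (DIV) 2, a lentivirus carrying an shRNA against S-SCAM, expressed from a U6 promoter. The Control group was 3 cultures labelled WT that received the virus with an empty shRNA vector, although one legend of the study names a control shRNA. RNA of all 6 cultures was isolated at DIV9, and reads were counted per gene on the rat genome rn5. The virus does not select a cell type and the cultures were not sorted, so fewer cells of a type and less RNA per cell cannot be told apart in these values.

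Glycolysis splits glucose into pyruvate and yields ATP without oxygen. Glucose enters brain cells through GLUT1 (Slc2a1), the transporter of endothelial cells and glia, and GLUT3 (Slc2a3), the transporter of neurons. Hexokinase traps it as glucose 6-phosphate, and phosphofructokinase (Pfkp and its relatives) makes the step that is most strongly controlled. Gapdh, Pgk1 and the enolases Eno1 and Eno2 act in the lower steps, with Eno2 the form typical of neurons. Lactate dehydrogenase then interconverts pyruvate and lactate, and its A subunit (Ldha) and B subunit (Ldhb) are commonly associated with lactate production and lactate use. Many of these genes are known targets of the hypoxia-inducible factor HIF1, whose binding sites hold the core ACGTG or GCGTG.

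Total counts were between 18350062 and 29654651 in the KD cultures and between 13061705 and 24874466 in the Control cultures. Levels are given as CPM, counts per 1000000 on library sizes scaled by TMM factors between 0.934 and 1.04, and a log2 fold change is KD over Control. The targeted gene Magi2 was at 30.35, 21.1 and 40.4 CPM in the KD cultures, against 82.8, 74.7 and 95.8 CPM in the Control cultures. Its log2 fold change was -1.46 ± 0.27 (SE), with an adjusted p of 0.228 in edgeR and 0.00124 in DESeq2. KD replicate 2 stood apart on the first principal component (41.6% of the variance), at 73.7 against 24.2 and -17.0 in the other KD cultures and -30.4 to -22.1 in the Control cultures. It also had the lowest level of astrocyte markers. Neuron markers were present in every culture, with 7 markers summing to between 3409 and 4467 CPM in KD and between 3366 and 5543 CPM in Control. Of these 7, 6 had a negative log2 fold change (median -0.37), and none was called by edgeR or DESeq2. In 3 of the 7 (Snap25, Syt1 and Elavl4) every KD culture was below every Control culture. This is a larger share than the 10.2% among all genes tested. Snap25, a protein of synaptic vesicle fusion, had the most negative log2 fold change of the 7, at -0.60 ± 0.21 (p 0.0204, adjusted p 0.408).

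None of the 9 members passed an adjusted p of 0.05 in edgeR or in DESeq2, where 0% and 1.32% of all genes tested were called. The smallest adjusted p of a member in edgeR was 0.485, for Ldhb. No member had an unadjusted p under 0.05 in edgeR, against 10.8% of all genes tested (1506 genes). Of the 9 members, 6 had a positive and 3 a negative log2 fold change, with a median of 0.17 and a range from -0.56 to 0.45. The median over all genes tested was -0.02. The members summed to 0.160%, 0.163% and 0.163% of all counts in the KD cultures, against 0.157%, 0.127% and 0.161% in the Control cultures. The difference was 0.0136 percentage points, with a two-sided exact permutation p of 0.2 where the smallest possible is 0.1, and it was 0.00307 without Control replicate 2, the culture with the lowest share. Hk1 and Ldhb together made up between 57.55% and 64.7% of the member counts. Several member rows, among them Slc2a3, Gapdh and Eno2, have uncertain levels, as given below, and all these shares depend on them.

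**Figure D1:**
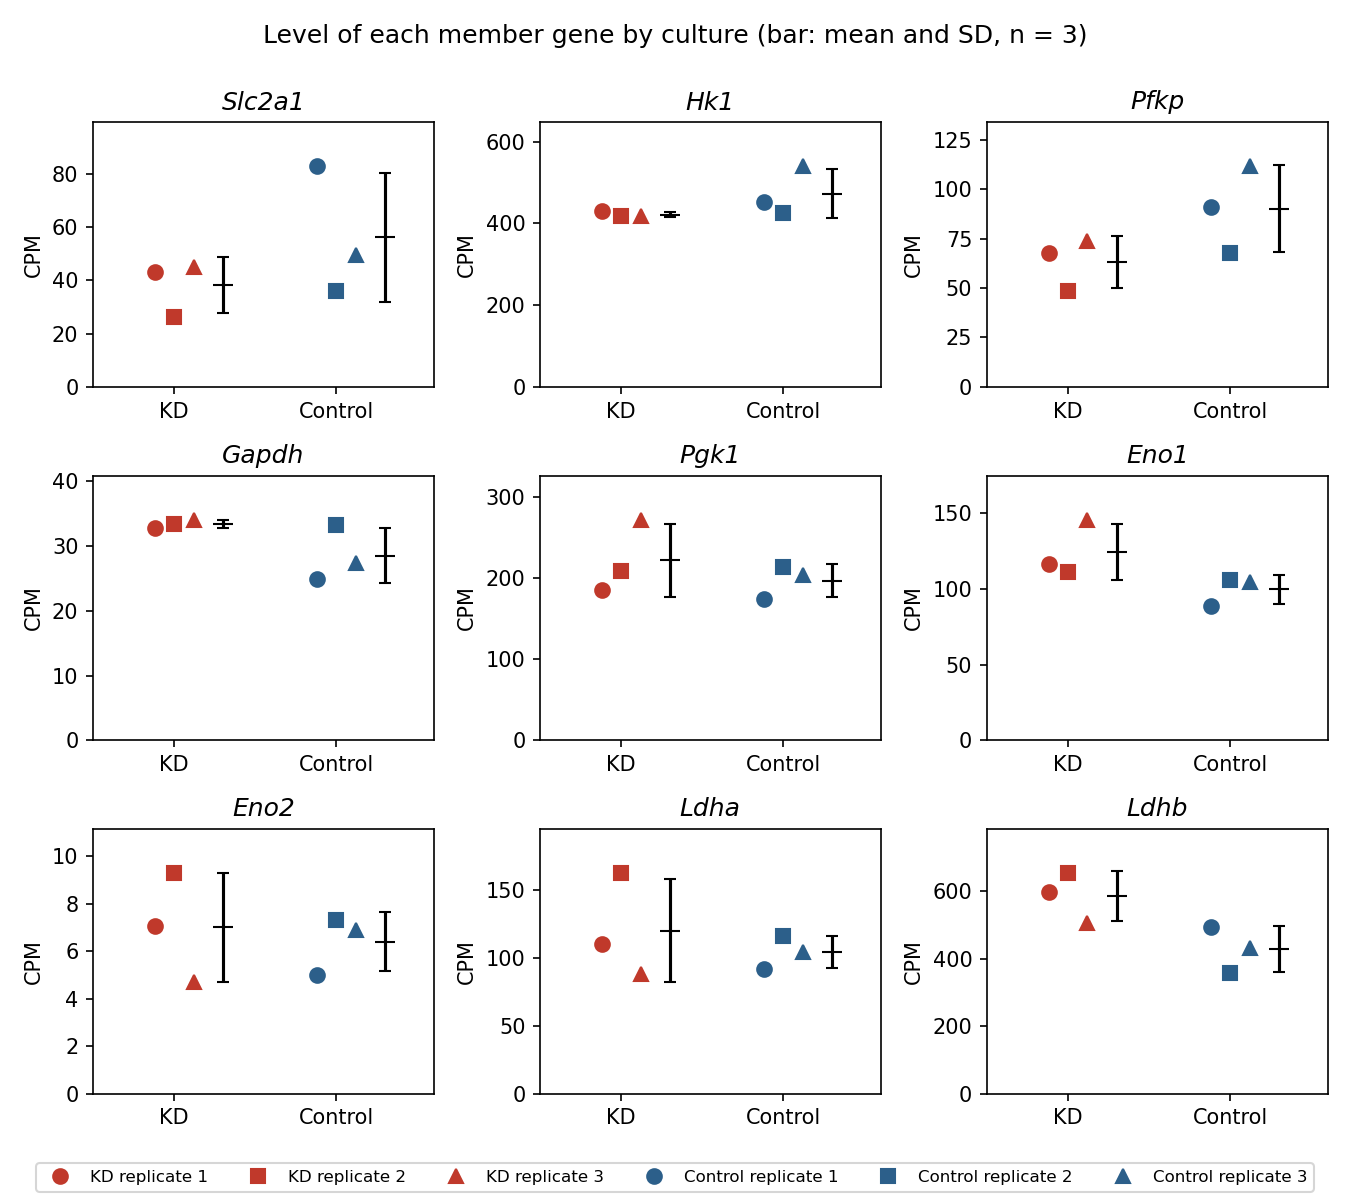
CPM (vertical axis, from 0, with a scale of its own in each panel) of the 9 tested members in each of the 3 KD cultures (red, left) and 3 Control cultures (blue, right), with the marker shape giving the replicate number and the black bar the mean and SD. KD and Control overlap in 7 panels and are separate for Eno1 and Ldhb.

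Slc2a1 encodes GLUT1 and lies at chr5:141964114-141992634 (rn5). It was at 43.3, 26.1 and 45.2 CPM in the KD cultures, against 83.0, 36.1 and 49.4 CPM in the Control cultures. The groups overlapped, with the highest level in Control replicate 1 and the lowest in KD replicate 2. The mean was 38.2 ± 10.5 CPM in KD and 56.15 ± 24.15 CPM in Control (SD, n = 3 each), a log2 fold change of -0.56 ± 0.34 (95% interval -1.34 to 0.23, edgeR adjusted p 0.595). Without Control replicate 1 the log2 fold change was -0.16, and without KD replicate 2 it was -0.31.

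The same cultures were at the ends of the astrocyte marker range. The 6 astrocyte markers in the table (Gfap, Aqp4, Slc1a3, S100b, Gja1 and Slc1a2) summed to 4796, 1792 and 3778 CPM in the KD cultures, against 8380, 3955 and 3554 CPM in the Control cultures. All 6 had a negative log2 fold change, from -1.37 for Gja1 to -0.24 for Slc1a3, and none was called by edgeR or DESeq2. Gja1, the gap junction protein of astrocytes, was at 591.5, 60.9 and 341 CPM in KD, against 1609, 389.9 and 574 CPM in Control. The 7 microglia markers in the table summed to between 0.381 and 4.77 CPM in KD and between 4.27 and 59.9 CPM in Control. All 5 that were tested had a negative log2 fold change, from -3.82 to -2.77, on few counts. Each was at an unadjusted p under 0.05 in edgeR, where 7.14% of all genes were lower at this p, and none was called. DESeq2 called 2 of the 5 as lower, against 1.07% of all genes it tested. The highest sum of the microglia markers was likewise in Control replicate 1 and the lowest in KD replicate 2. The endothelial markers Cldn5, Flt1 and Cdh5 were at or below 0.164 CPM in every culture, and Tek and Pecam1 at or below 3.47 CPM. Kdr was at 0.596, 0.104 and 2.52 CPM in KD, against 1.77, 1.07 and 18.4 CPM in Control. These 6 endothelial markers summed to between 1.98 and 4.72 CPM in KD and between 2.54 and 20.7 CPM in Control. The part of these markers in the Slc2a1 difference was not tested.

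**Figure D2:**
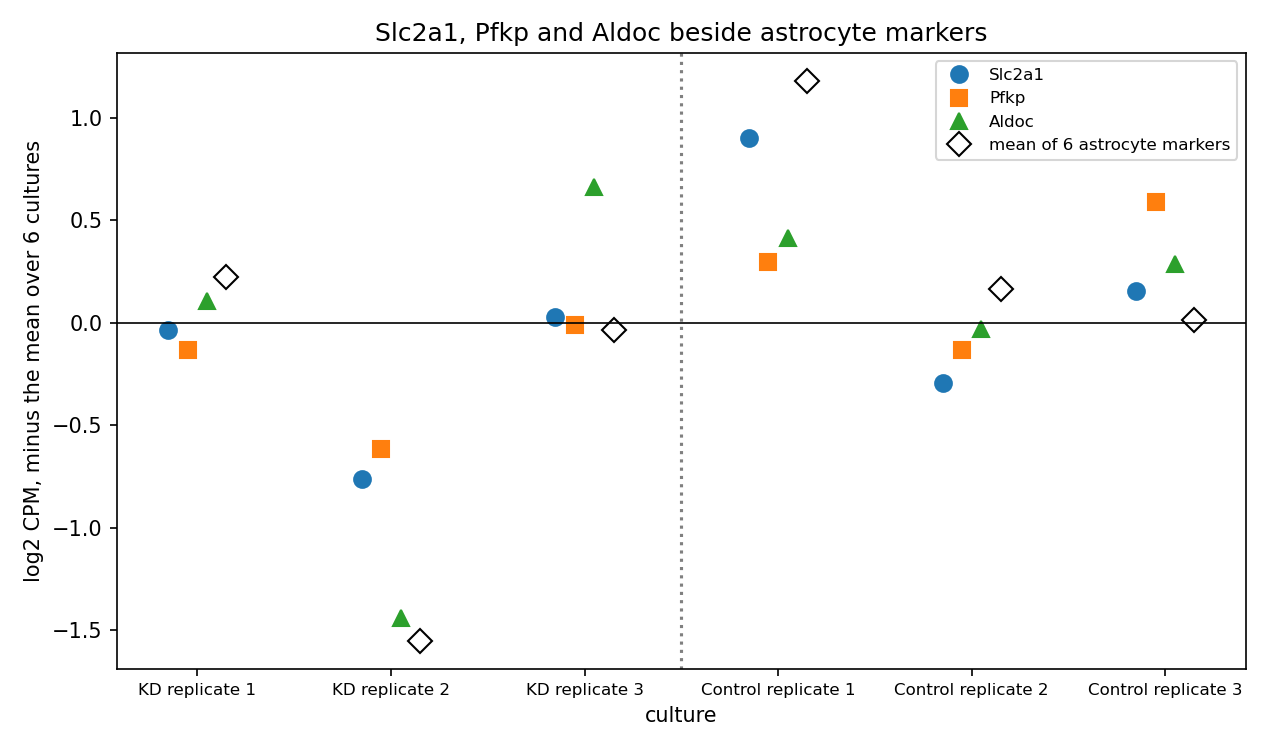
Log2 CPM minus the mean over the 6 cultures (vertical axis) of Slc2a1, Pfkp and the aldolase gene Aldoc, beside the mean of 6 astrocyte markers (open diamonds), for each KD culture (left) and each Control culture (right). In KD replicate 2 all 4 values are below the average, with Slc2a1 at -0.76 and the astrocyte mean at -1.55, and in Control replicate 1 all 4 are above it, with Slc2a1 at 0.904 and the astrocyte mean at 1.18.

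Slc2a3, the gene of the neuronal transporter GLUT3 (chr4:222773213-222784266, rn5), had 0 counts in all 6 libraries, which allows a level of up to 0.104 to 0.246 CPM at 3 counts per library. The table holds a second row with the same Entrez ID, at chr4:222573369-222584541, with 1 to 4 counts per library. How the counting treated reads that match more than one place is not given in the sources used here, so these zeros do not show that GLUT3 RNA was absent. No ratio of Slc2a1 to Slc2a3 could be formed. Of 9 other glucose transporters in the table, 7 were tested and none was called by edgeR or DESeq2. The lowest unadjusted p was that of Slc2a13, the proton myo-inositol symporter of the same family, at 12.03, 7.97 and 10.3 CPM in KD, against 20.8, 15.7 and 16.55 CPM in Control. Its groups did not overlap, and its log2 fold change was -0.81 ± 0.26 (p 0.0137, adjusted p 0.381). Slc2a9, a urate transporter, had a log2 fold change of -1.24 ± 0.67, or -2.26 without KD replicate 3. Slc2a8 and Slc2a6, transporters of intracellular membranes, were at 0.31 ± 0.20 and 0.29 ± 0.30.

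Hk1, the main hexokinase of the brain (chr20:33703472-33770509, rn5), was at 429, 417 and 418 CPM in the KD cultures, against 451.5, 425 and 540.0 CPM in the Control cultures. The KD cultures lay within 12 CPM of each other, and the Control group reached down to the highest KD culture. The mean was 422 ± 6.655 CPM in KD and 472 ± 60.1 CPM in Control (SD, n = 3 each), a log2 fold change of -0.16 ± 0.19 (95% interval -0.60 to 0.27, adjusted p 0.777). Without Control replicate 3 it was -0.03. Of the other hexokinases, Hk2 had a log2 fold change of -0.13 ± 0.31, and Hk3 was below the filter.

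Pfkp, the platelet-type phosphofructokinase that is also a brain form (chr17:70227568-70290412, rn5), was at 67.7, 48.4 and 73.65 CPM in the KD cultures, against 91.2, 67.8 and 112 CPM in the Control cultures. The groups overlapped at KD replicate 3 and Control replicate 2. The mean was 63.3 ± 13.2 CPM in KD and 90.2 ± 21.9 CPM in Control (SD, n = 3 each), a log2 fold change of -0.51 ± 0.25 (95% interval -1.09 to 0.06, p 0.0741, adjusted p 0.499). It was -0.32 without KD replicate 2 and -0.30 without Control replicate 3. The liver and muscle forms differed less in their means, with log2 fold changes of -0.17 ± 0.20 for Pfkl and 0.01 ± 0.20 for Pfkm. Among the regulators of this step, Pfkfb4, which makes and removes the activator fructose 2,6-bisphosphate, was at 6.50, 7.07 and 5.67 CPM in KD, against 3.82, 4.59 and 4.62 CPM in Control. Its groups did not overlap, and its log2 fold change was 0.56 ± 0.29 (p 0.0829, adjusted p 0.510). Pfkfb3 and Pfkfb2 had log2 fold changes of -0.32 ± 0.33 and -0.21 ± 0.26, and without KD replicate 2 these were -0.0100 and -0.33. Fbp2, the muscle form of fructose bisphosphatase, stayed below 1 CPM in every culture, with a log2 fold change of -1.23 ± 0.48 (p 0.0317, adjusted p 0.427).

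Gapdh, the oxidoreductase that opens the lower steps and a common reference gene (chr4:224693580-224697455, rn5), was at 32.8, 33.5 and 34.1 CPM in the KD cultures, against 24.9, 33.2 and 27.45 CPM in the Control cultures. The KD cultures lay close together, and Control replicate 2 was above the lowest of them. The log2 fold change was 0.23 ± 0.21 (95% interval -0.24 to 0.71, adjusted p 0.715), or 0.37 without Control replicate 2 and 0.14 without Control replicate 1. Its level is uncertain, because 30 further rows of the table are described as this enzyme, with 39 to 69 counts in all per library, against 405 to 966 counts on the Gapdh row. Gapdhs, the form known from sperm, was at 6.125, 5.855 and 4.51 CPM in KD, against 4.03, 3.69 and 3.40 CPM in Control, a log2 fold change of 0.57 ± 0.30 (p 0.0933, adjusted p 0.527).

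Pgk1, phosphoglycerate kinase, makes the first ATP of the pathway and lies at chrX:56383382-56399430 (rn5). It was at 185, 208 and 272 CPM in the KD cultures, against 174, 213 and 204 CPM in the Control cultures. The groups overlapped and KD replicate 3 was the highest. The log2 fold change was 0.17 ± 0.21 (95% interval -0.31 to 0.66, adjusted p 0.796), and without KD replicate 3 it was 0.00. A further 3 rows are described as phosphoglycerate kinase, with 0 to 3 counts in all per library, against 2598 to 6139 counts on the Pgk1 row. How reads that match more than one of these rows were treated is not given, so the level of Pgk1 carries some uncertainty.

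Eno1, the enolase of most tissues (chr5:170916358-170927263, rn5), was at 116, 111 and 145 CPM in the KD cultures, against 88.55, 106 and 104.5 CPM in the Control cultures. Every KD culture was above every Control culture. The mean was 124 ± 18.6 CPM in KD and 99.5 ± 9.52 CPM in Control (SD, n = 3 each), a log2 fold change of 0.32 ± 0.19 (95% interval -0.12 to 0.76, p 0.136, adjusted p 0.589). It was 0.19 without KD replicate 3. A further 11 rows are described as enolase, with 1 to 16 counts in all per library, against 1287 to 3286 counts on the Eno1 row. The level of Eno1 is uncertain for the same reason as that of Pgk1. Eno1 and Ldhb were the members whose groups did not overlap, 2 of 9, both with KD above. Among all genes tested the groups did not overlap in 17.6% (KD above in 7.42%, KD below in 10.2%). The 2 of 9 is near the share for both directions and larger than the share for KD above. With 9 genes this was not tested.

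Eno2, the neuronal enolase (chr4:224302789-224311633, rn5), was at 7.05, 9.28 and 4.69 CPM in the KD cultures, against 5.02, 7.30 and 6.91 CPM in the Control cultures. KD held both the highest and the lowest culture. The log2 fold change was 0.13 ± 0.34 (95% interval -0.64 to 0.91, adjusted p 0.908), and it was -0.09 without KD replicate 2 and -0.02 without Control replicate 1. The Eno2 row had 89 to 268 counts per library. Eno2 is 1 of 6 genes between 224281979 and 224349539 on chromosome 4 that have a second row with the same Entrez ID between 19089752 and 19157171 on chromosome 9. Its second row had 0 or 1 counts, and the triosephosphate isomerase gene Tpi1 of the same stretch had 0 to 2 counts in each of its rows. The neighbour Usp5, which has no such second row, had 1551 to 5848 counts. The levels of Eno2 and Tpi1 are therefore uncertain. The ratio of Eno1 to Eno2 counts was 16.5, 11.9 and 31.0 in KD, against 17.7, 14.5 and 15.1 in Control. The mean log2 ratio differed by 0.22, with a two-sided exact permutation p of 0.8 (0.8 after adjustment over the 2 ratios that could be formed). Without KD replicate 3 the difference was -0.16.

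Ldha, the A subunit of lactate dehydrogenase (chr1:103975207-103984632, rn5), was at 109.8, 162 and 87.85 CPM in the KD cultures, against 91.8, 116 and 104.5 CPM in the Control cultures. KD held both the highest culture, replicate 2, and the lowest, replicate 3. The mean was 119.9 ± 38.1 CPM in KD and 104 ± 12.04 CPM in Control (SD, n = 3 each), a log2 fold change of 0.20 ± 0.25 (95% interval -0.37 to 0.78, adjusted p 0.796). Without KD replicate 2 it was -0.04. A further row is described as L-lactate dehydrogenase, with 1 to 5 counts per library, so the levels of Ldha and Ldhb carry some uncertainty as well.

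Ldhb, the B subunit (chr4:240918028-240936001, rn5), was at 599, 654 and 506 CPM in the KD cultures, against 495, 359.5 and 434 CPM in the Control cultures. Every KD culture was above every Control culture, with KD replicate 3 and Control replicate 1 closest. The mean was 586 ± 75.0 CPM in KD and 429 ± 67.8 CPM in Control (SD, n = 3 each), a fold change of 1.365. The log2 fold change was 0.45 ± 0.21 (95% interval -0.03 to 0.93, p 0.0648, adjusted p 0.485), and it stayed between 0.35 and 0.56 with any 1 culture left out. The ratio of Ldha to Ldhb counts was 0.183, 0.248 and 0.174 in KD, against 0.1855, 0.322 and 0.241 in Control. The mean log2 ratio differed by -0.29, with overlapping groups and a two-sided exact permutation p of 0.4 (0.8 after adjustment over the 2 ratios). Without Control replicate 2 the difference was -0.09.

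The start regions of Slc2a1, Ldha and Ldhb are shown because these genes had the most negative log2 fold change, the most copies of the HIF1 core and the most positive log2 fold change among the members. Each is 300 bases from RefSeq (build GRCr8), 250 before and 50 after the gene start, on the strand of the gene, and ACGTG or its reverse complement CACGT is in capitals. They lie at chr5:138002272-138002571 on the plus strand for Slc2a1, chr1:106507842-106508141 on the plus strand for Ldha and chr4:177177359-177177658 on the minus strand for Ldhb.
Slc2a1: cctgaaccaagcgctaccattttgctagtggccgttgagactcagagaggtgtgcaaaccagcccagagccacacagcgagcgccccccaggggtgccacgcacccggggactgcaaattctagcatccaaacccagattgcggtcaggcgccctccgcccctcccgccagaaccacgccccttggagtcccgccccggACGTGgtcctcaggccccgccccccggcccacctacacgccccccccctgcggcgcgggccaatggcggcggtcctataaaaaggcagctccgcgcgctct
Ldha: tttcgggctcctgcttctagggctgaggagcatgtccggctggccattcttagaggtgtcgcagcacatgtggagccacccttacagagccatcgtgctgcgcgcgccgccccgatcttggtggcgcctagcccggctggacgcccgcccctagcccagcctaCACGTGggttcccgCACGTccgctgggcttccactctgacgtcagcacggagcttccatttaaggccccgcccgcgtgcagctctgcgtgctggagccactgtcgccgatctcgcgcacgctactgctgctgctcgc
Ldhb: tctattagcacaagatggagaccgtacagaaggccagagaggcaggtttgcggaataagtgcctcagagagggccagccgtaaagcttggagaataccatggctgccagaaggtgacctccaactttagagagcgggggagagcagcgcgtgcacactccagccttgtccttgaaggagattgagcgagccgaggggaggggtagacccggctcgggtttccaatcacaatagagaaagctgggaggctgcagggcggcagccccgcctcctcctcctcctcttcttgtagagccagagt
The Ldha region holds ACGTG 3 times over both strands, of which a pair overlaps in 1 CACGTG palindrome. The Slc2a1 region holds it 1 time, 51 bases before the start, and the Ldhb region holds none. Of 8 members with a start region in the table (Pgk1 and Slc2a3 have none), 6 held at least 1 ACGTG on either strand, where Hk1 and Eno1 have more than 1 listed start and hold it at 1 of them. Among all 33469 start regions, 19.3% held ACGTG. That share is counted per region and the 6 of 8 per gene, so the values are not of the same unit. The related core GCGTG was in 29.7% of all start regions, and it occurred 3 times in Slc2a1, 3 times in Ldha and 1 time in Ldhb. These letters describe the regions and do not show that a factor binds there.

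**Figure D3:**
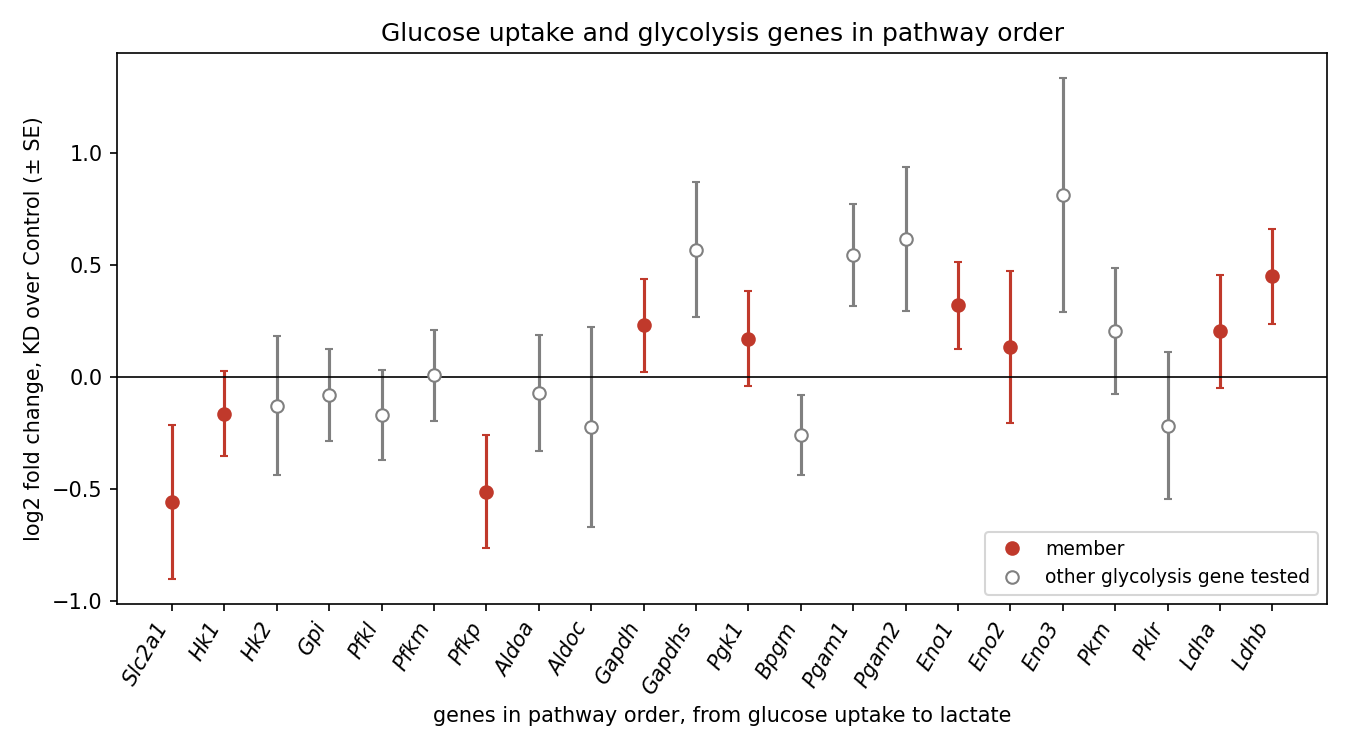
Log2 fold change, KD over Control, with its SE (vertical axis) of the 9 tested members (red) and 13 other glycolysis genes tested (grey, open), ordered along the horizontal axis from glucose uptake to lactate. Members from Slc2a1 to Pfkp lie between -0.56 and -0.16, and members from Gapdh to Ldhb lie between 0.13 and 0.45, with no member past the test.

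Along the pathway, the 3 tested members of uptake and the upper steps (Slc2a1, Hk1 and Pfkp) had negative log2 fold changes, and the 6 of the lower steps (Gapdh, Pgk1, Eno1, Eno2, Ldha and Ldhb) had positive ones. This order was noticed after the values were seen and is given as a description, with no test. The other glycolysis genes were 19 in number, of which 14 were tested and none was called by edgeR or DESeq2. Before adjustment, 1 of the 14 was higher and 1 lower at p under 0.05 in edgeR. Of all genes tested, 3.69% were higher and 7.14% lower at this p. The higher one was Pgam1, and the lower one is not reported here and not plotted. Pgam1, the phosphoglycerate mutase of brain (chr1:268610676-268618285, rn5), was at 290.5, 392.4 and 243.5 CPM in the KD cultures, against 214, 232 and 190.0 CPM in the Control cultures. Its groups did not overlap, and its log2 fold change was 0.54 ± 0.23 (p 0.042, adjusted p 0.444), or 0.37 (p 0.123) without KD replicate 2. Pgam2, the muscle form, was at 0.62 ± 0.32 and Eno3, the muscle enolase, at 0.81 ± 0.52, and without Control replicate 2 they were at 0.40 and 0.45. Pyruvate kinase Pkm was at 65.5, 51.7 and 32.1 CPM in KD, against 50.3, 40.9 and 38.35 CPM in Control, a log2 fold change of 0.20 ± 0.28. Its level is uncertain, since 8 further rows are described as pyruvate kinase.

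Of the upper steps beyond the members, Pfkm, Gpi and Aldoa were close to 0 in log2 fold change, and Hk2, Pfkl and Aldoc were more negative. Gpi, the isomerase after hexokinase, was at -0.08 ± 0.21, and the aldolase Aldoa was at -0.07 ± 0.26. Aldoc, the brain aldolase that marks astrocytes and Purkinje cells, was at 491, 168 and 723 CPM in the KD cultures, against 608, 446 and 558 CPM in the Control cultures. Its low value was in KD replicate 2, the culture with the lowest astrocyte markers, and its log2 fold change was -0.22 ± 0.45, or 0.21 without that culture. Bpgm, the bisphosphoglycerate mutase, was at -0.26 ± 0.18 with groups that did not overlap, and the liver-type pyruvate kinase Pklr was at -0.22 ± 0.33. Over the 9 genes plotted from uptake to aldolase, 8 log2 fold changes were negative (median -0.16), and over the 12 from Gapdh to lactate without Bpgm, 11 were positive (median 0.28). Without KD replicate 2 these counts were 4 negative of 9 (median 0.05) and 9 positive of 12 (median 0.32). Hk3, Tpi1, Pgk2 and Ldhc were among those below the filter.

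**Figure D4:**
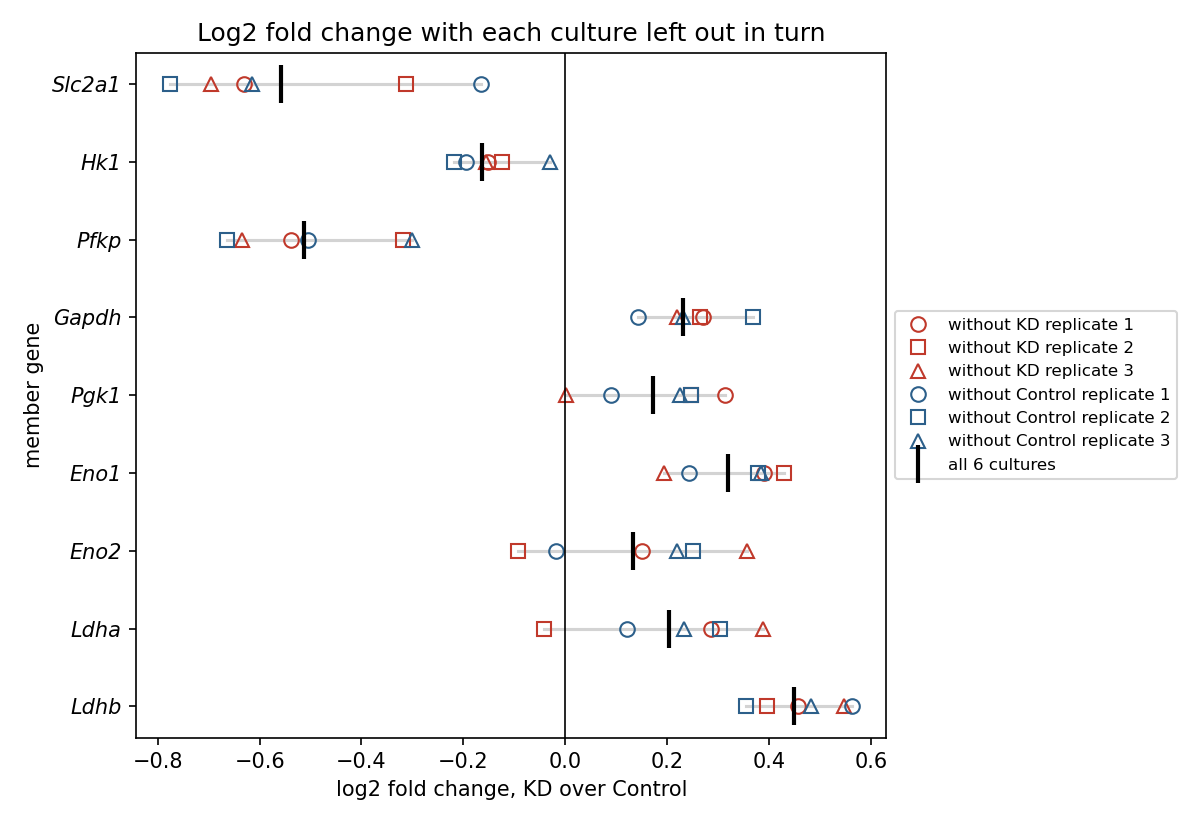
Log2 fold change, KD over Control (horizontal axis), of each tested member with all 6 cultures (black bar) and with each culture left out in turn (red symbols for KD, blue for Control). Slc2a1, Hk1 and Pfkp stay below 0 and Gapdh, Eno1 and Ldhb above it throughout, Pgk1 reaches 0.00, and Eno2 and Ldha cross 0.

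The members also differed in gene span, the distance from gene start to end with introns. The 3 with a negative log2 fold change spanned 28.5 kb (Slc2a1), 62.8 kb (Pfkp) and 67.0 kb (Hk1), and the 6 others between 3.88 kb (Gapdh) and 17.97 kb (Ldhb). Over all genes tested, the median log2 fold change was 0.08 in the 4384 genes under 10 kb, 0.04 from 10 to 20 kb, -0.03 from 20 to 50 kb, -0.15 from 50 to 100 kb and -0.20 above 100 kb. With an offset for gene span in the fit, Slc2a1 was at -0.53, Hk1 at -0.04 and Pfkp at -0.395, while Gapdh was at 0.12 and Ldhb at 0.41. The signs of the 9 members were as before, and their median was 0.11. Outside the members, Slc2a13 (322 kb) was at -0.57 with the offset (edgeR p 0.0562) and -0.81 without it. Snap25 (185 kb) was at -0.40 with it and -0.60 without it, and Pdha1 (13.6 kb) at -1.49 and -1.43. Why gene span and log2 fold change go together was not tested.

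**Figure D5:**
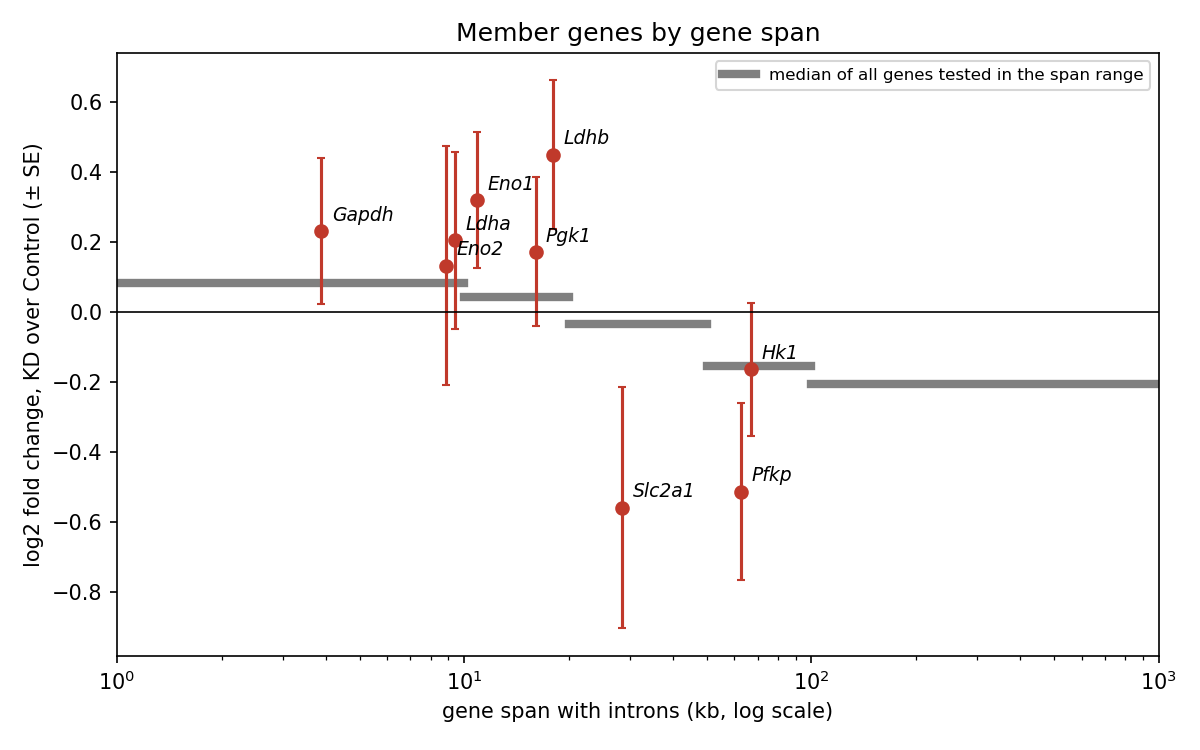
Log2 fold change, KD over Control, with its SE (vertical axis) of the 9 tested members (red) against gene span in kb (horizontal axis, log scale), with the median of all genes tested in each span range (grey bars, drawn to the ends of the axis in the outer ranges). Slc2a1, Pfkp and Hk1 are the members above 20 kb and the ones below 0.

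Around the pathway, 9 lists of 99 genes were examined, of which 92 had a row and 80 were tested. None of the 80 was called by edgeR, 6 were lower and 2 higher at p under 0.05 before adjustment (8 of 80, against 10.8% of all genes), and 1 was called, as lower, by DESeq2 (lower in 1.07% of all genes it tested). That gene was Pdha1, the catalytic alpha subunit of pyruvate dehydrogenase, which passes pyruvate on to the mitochondrial cycle (chrX:37640725-37654356, rn5). Pdha1 was at 22.5, 21.5 and 45.5 CPM in the KD cultures, against 72.2, 76.8 and 91.5 CPM in the Control cultures. Every KD culture was below every Control culture. The log2 fold change was -1.43 ± 0.32 (p 0.00162, adjusted p 0.291 in edgeR and 0.00989 in DESeq2), and it lay between -1.86 and -1.20 with any 1 culture left out. DESeq2 no longer called it without KD replicate 1, KD replicate 2 or Control replicate 3. A pseudogene of Pdha1 on chromosome 16 had 23, 44 and 65 counts in KD, against 107, 56 and 163 counts in Control, and reads of these rows may be split between them. Pdhb, the beta subunit, and Pdhx, a component that holds the complex together, had log2 fold changes of 0.50 ± 0.32 and 0.42 ± 0.26. Without KD replicate 2 these were 0.12 for Pdhb and 0.16 for Pdhx. Pdk1, a kinase that switches the complex off, was at -0.29 ± 0.19 with groups that did not overlap.

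Among genes of lactate and pyruvate transport, 6 of 8 were tested and none was called by edgeR or DESeq2. Slc16a7 (MCT2), the neuronal lactate importer, was at 4.66, 5.13 and 8.76 CPM in the KD cultures, against 9.29, 25.3 and 8.45 CPM in the Control cultures. The groups overlapped, and its log2 fold change of -1.20 ± 0.48 (p 0.034, adjusted p 0.427) was -0.51 without Control replicate 2. Bsg (basigin), which carries these transporters to the membrane, was at 722.5, 904 and 835 CPM in KD, against 447, 819.6 and 483 CPM in Control, a log2 fold change of 0.49 ± 0.27 (p 0.105, adjusted p 0.545). Control replicate 2 was the Control culture that overlapped KD, and the log2 fold change was 0.83 without it and 0.33 without Control replicate 1. Slc16a1 (MCT1), a transporter of glia and endothelium, was at -0.32 ± 0.31, and the mitochondrial pyruvate carrier Mpc1 at -0.25 ± 0.35.

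Of the pentose phosphate pathway, which branches from glucose 6-phosphate, 6 of 7 genes were tested, 5 positive and 1 negative, with no unadjusted p under 0.05 in edgeR and no call by DESeq2. Rpe was at -0.41 ± 0.25, Pgls at 0.22 ± 0.43 and Tkt at 0.11 ± 0.20. Of glycogen metabolism, 12 of 15 genes were tested, 2 positive and 10 negative (median -0.30), again with none at an unadjusted p under 0.05 in edgeR and none called by DESeq2. Glycogen phosphorylase Pygm was at 5.58, 0.450 and 2.26 CPM in KD, against 11.5, 3.69 and 6.24 CPM in Control, with the lowest level in KD replicate 2 and the highest in Control replicate 1, as for the astrocyte markers. Its log2 fold change was -1.39 ± 0.77, or -0.84 without KD replicate 2, -0.87 without Control replicate 1 and -2.39 without KD replicate 1. Phkg1 was at -0.93 ± 0.54 (-0.23 without Control replicate 1) and Pygl at -0.63 ± 0.52 (-0.25 without KD replicate 2 and -0.21 without Control replicate 3).

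All 8 hypoxia factors were tested, and none was called by edgeR or DESeq2. Hif1an, the hydroxylase that keeps HIF1 from its coactivators, was at 47.2, 69.4 and 28.8 CPM in KD, against 28.2, 22.8 and 30.1 CPM in Control. The groups overlapped at KD replicate 3, and the log2 fold change was 0.84 ± 0.32 (p 0.0292, adjusted p 0.421). Its highest level was in KD replicate 2, and without that culture the log2 fold change was 0.52 (p 0.105). Egln2, a prolyl hydroxylase that marks HIF for removal, was at 0.47 ± 0.24 (p 0.0806), or 0.70 without Control replicate 2 and 0.30 without Control replicate 1. Epas1 (HIF2 alpha) was at -0.61 ± 0.47, or -0.16 without KD replicate 2 and -1.02 without KD replicate 3. Vhl was at 0.22 ± 0.25, or 0.07 without Control replicate 2 and 0.47 without Control replicate 1. Of 12 hypoxia targets outside glycolysis, 11 had a negative log2 fold change (median -0.30), 1 of them at an unadjusted p under 0.05 and none called by DESeq2. That was Car9 (carbonic anhydrase), at 0.108, 0.0693 and 0.487 CPM in KD, against 0.699, 1.23 and 0.592 CPM in Control, a log2 fold change of -1.87 ± 0.73 (adjusted p 0.427) on few counts, and -3.17 without KD replicate 3. Vegfa, the vascular growth factor, was at 76.5, 70.8 and 41.9 CPM in KD, against 88.1, 81.9 and 79.4 CPM in Control. Its groups did not overlap, and its log2 fold change was -0.40 ± 0.25 (p 0.145, adjusted p 0.6), or -0.17 without KD replicate 3. Ndrg1 was at -0.35 ± 0.24 and P4ha2 at -0.43 ± 0.36, and without the same culture they were at -0.16 and -0.19.

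The mean profile of the 9 tested members was nearly flat, with a centred log2 value of 0.0175, 0.0136 and 0.0104 in the KD cultures, against -0.0331, -0.071 and 0.0626 in the Control cultures. The named genes of at least 10 CPM that followed this small profile most closely, of 9186, were Ftsj2 (Pearson's r 0.972), Papd7 (0.966), Csnk2a2 (0.961), Slain1 (0.954) and Podxl (0.954), each over 6 cultures. These values describe likeness over few cultures that share their libraries, and among so many genes close matches are found for any profile.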

How the data were processed

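RNA was measured in 6 rat hippocampal cultures, 3 KD and 3 Control, grouped by their labels. The authors prepared TruSeq v2 libraries, which do not keep strand, sequenced single reads, aligned them with STAR 2.3.0 to rn5 and counted them per Ensembl gene with HTSeq 0.6, whose settings are not given in the sources used here. The deposited values are raw counts per gene, 26405 rows, of which 6675 had no count. Every per-sample column was used, and the labels and methods describe the replicates as biological.

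The main test was edgeR 4.0.16 (R 4.3.3, quasi-likelihood F-test, TMM, filterByExpr with a minimum count of 10, condition alone, Benjamini-Hochberg adjustment over 13917 genes, threshold 0.05). The SE is the log2 fold change divided by the square root of the test statistic, and 95% intervals use 2.28 SE. DESeq2 1.42.0 was the alternative, with adjusted p for 14743 genes. Ratios and shares were compared by two-sided exact permutation tests. A gene whose symbol was blank or a locus number took its name from the description or Entrez ID. A listed gene that no row had as its symbol was also taken from a description that names it. This was so for Pdha1, whose row carries the symbol Pdha1l1. An offset from a loess fit (span 0.5) on log gene span was added after seeing the data. The edgeR and DESeq2 fits of condition alone were tested on simulated counts, with planted fold changes larger than any seen in the members. The other steps, such as the gene-span offset, were not tested in this way.

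The members and gene lists were chosen with earlier results of these data known. Named are all members, all other glycolysis genes, from every further list the up to 4 genes with the smallest unadjusted p, and the 5 named genes of at least 10 CPM most like the mean member profile, apart from some genes that are not reported here. Alternatives were RLE and upper-quartile scaling, no filter, at least 10 counts in every sample, a replicate block, DESeq2 and each culture left out. Markers of neurons, astrocytes, microglia, endothelium, the oligodendrocyte lineage, fibroblasts and erythroid cells were read in each culture. Of the last 3 lists, the oligodendrocyte sum was between 248 and 962 CPM in KD and between 253 and 745 CPM in Control, the fibroblast and mural sum between 15.2 and 78.2 CPM in KD and between 80.6 and 96.5 CPM in Control, and the erythroid sum at most 0.329 CPM in any culture.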

Additional observations from a re-analysis of the deposited data

How the results depend on the processing

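With 3 cultures a group, the 95% intervals of the members were wide on the log2 scale. The lowest end was -1.34 (Slc2a1) and the highest 0.93 (Ldhb). Each interval included 0, and a difference anywhere inside a gene's own interval remains possible. The number of members called stayed at 0 under every alternative run, in edgeR and in DESeq2. In the main edgeR fit no gene at all was called (smallest adjusted p 0.228), so a count of 0 there does not set the members apart. Members at an unadjusted p under 0.05 were 0 with all cultures, 1 with a replicate block (Pfkp) and 0 to 2 with 1 culture left out: Ldhb without KD replicate 3 or Control replicate 1, and Slc2a1 and Pfkp without Control replicate 2. The median log2 fold change of the members was between 0.11 and 0.20 under the other alternatives and between -0.0407 (without KD replicate 2) and 0.27 with 1 culture left out. The file columns of KD and Control replicates 1, 2 and 3 carry the shared numbers 12, 29 and 5, and the labels do not say what these mark. Same-numbered cultures correlated at 0.607, 0.101 and -0.0908 in their deviations from the group means, and KD replicates 2 and 3 correlated best with a Control culture of another number, so the data do not settle whether the numbers pair the cultures. With the replicate block Pfkp was at -0.50 (edgeR, p 0.0303, adjusted p 0.378), and no member was called. Magi2 had a log2 fold change of -1.44 in DESeq2, which called it, and -1.71 to -1.22 with 1 culture left out, uncalled in edgeR. The genes of the 9 pathway lists called were 0 in edgeR and 1 in DESeq2, 2 in DESeq2 with a replicate block and 0 to 3 with 1 culture left out of DESeq2. The difference in log2 Eno1 to Eno2 ratio ran from -0.16 (without KD replicate 3) to 0.53 with 1 culture left out. Sign changes with 1 culture left out gave ranges of -0.092 to 0.36 for Eno2, -0.0407 to 0.39 for Ldha, -0.46 to 0.063 for Hk2, -0.18 to 0.093 for Gpi, -0.083 to 0.15 for Pfkm, -0.29 to 0.13 for Aldoa, -0.70 to 0.21 for Aldoc, -0.020 to 0.44 for Pkm, -0.37 to 0.044 for Pfkfb2, -0.53 to 0.049 for Slc16a1, -0.48 to 0.22 for Mpc1 and -0.056 to 0.94 for Pgls. Pfkm, at 0.01, was also at -0.029 with upper-quartile scaling, at -0.0071 with at least 10 counts in every sample and at -0.00078 with the gene-span offset. The causes were not tested.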
